A study of Homo sapiens with 12 samples.

Results

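The RNA levels of 40 genes of the Fanconi anaemia pathway, homologous recombination, the damage kinases and mismatch repair were examined in sorafenib-resistant and parental liver cancer cells. The 40 genes are those of 98711 rows of the tables whose symbol is on a list of these pathways. Each symbol matched 1 row, and all 40 passed the filter on low values in both cell lines. RNA was sequenced from Huh7 and HepG2, established cell lines that the labels describe as hepatocellular carcinoma cells of WT genotype, in 4 groups of 3 samples. The parental groups were untreated. The resistant groups of each line had been exposed to sorafenib, a kinase inhibitor used against liver cancer, in repeated rounds of 24 h, starting at 10 μmol and with growing dose over 8 months. The labels name 1 resistant population per line, and say neither whether the drug was present at harvest nor whether the 3 samples of a group came from separate cultures. The p-values then measure only the spread between these samples, which may be technical. The study set out to find what resistant cells express differently from their parents.

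Levels are given as FPKM, the fragments of a gene scaled by its exon length and by the depth of the library, so they can be set side by side between genes. The reads behind a sample, calculated back from the values, numbered 12290110 to 15728772 in parental HepG2 and 16158258 to 19285936 in the other 3 groups. At this depth the least covered member, RAD54B in parental HepG2, had at least 70 reads in every sample. Of 9 hepatocyte lineage markers, all reached 1 FPKM in every group, but their summed level was lower in the resistant cells of both lines. It was 7852 to 9715 FPKM in parental and 5209 to 5343 FPKM in resistant Huh7, and 4966 to 6088 FPKM in parental and 3894 to 4179 FPKM in resistant HepG2. The single markers did not all fall: by the test described below, 2 rose and 3 fell in Huh7, and 3 fell in HepG2. Their median log2 fold change was 0.15 in Huh7 and 0.007 in HepG2. The 9 markers of other cells together reached 9.55 to 23.7 FPKM in parental Huh7 and both HepG2 groups and 60.9 to 88.0 FPKM in resistant Huh7, where KRT19, a keratin of bile duct cells, had risen (log2 fold change 3.12). All 3 of these markers tested in Huh7 rose, CD14 (0.79) among them. Of the 4 tested in HepG2, KRT19 rose (0.83) and PECAM1 fell (-0.81). None of the 9 was at 0 throughout a group, and the part of either list in the results was not tested. Samples of a group differed in how levels followed the share of G and C in the gene. In resistant HepG2, the first sample held more of the AT-rich genes (rho -0.77 between GC content and its difference from the rest of its group) and the second fewer (rho 0.74), and in Huh7 the values were between -0.62 and 0.68. These are measures over genes, which are not independent replicates.

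DNA interstrand crosslinks are removed by the Fanconi anaemia pathway. A core complex with the ligase FANCL and its enzyme UBE2T attaches ubiquitin to the pair FANCD2 and FANCI, nucleases then open the lesion, and the break is repaired by homologous recombination, in which ends are resected, BRCA2 with PALB2 prepares strand exchange, and helicases such as BLM and BRIP1 process the intermediates. ATM and ATR signal the damage through CHEK2 and CHEK1, and the mismatch repair proteins recognise mispaired bases after replication. Many of these genes are transcribed mainly in cells that are preparing for or passing through S phase.

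In resistant Huh7 most of the members were lower than in the parental line, and in resistant HepG2 most were higher. A gene was called where the Benjamini-Hochberg adjusted p of limma's moderated test on log2(FPKM + 1), over all genes tested, was under 0.05. In Huh7, 24 of 40 members fell and 6 rose, among 12554 genes of which 37.4% fell and 32.7% rose. In HepG2, 16 members rose and 1 fell, among 11762 genes of which 11.6% rose and 8.43% fell. The median log2 fold change of the members was -0.48 in Huh7 and 0.44 in HepG2, beside -0.04 and 0.12 for all genes tested. In RNA from whole cultures, a change of level in each cell and a change in the share of cells that express a gene cannot be told apart.

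Past both thresholds of the study, an adjusted p under 0.05 and a log2 fold change beyond 1, stood 8 members in Huh7, all lower. These were FANCL, FANCM, BRCA1, BRIP1, RAD54B, MRE11, RBBP8 and ATM, and 14.0% of all genes tested lay that far down and 8.59% that far up. In HepG2 BRIP1 and EXO1 alone did so, both higher, where 3.29% of all genes lay that far up and 2.98% that far down. RAD50 and 1 other of the 24 that fell in Huh7 reached 1 FPKM there in the parental samples only, so they entered the test through the group in which they were higher. The HepG2 count varied with single samples: without the third resistant sample 6 members were higher, and without the first parental sample 8 were. The median log2 fold change of the members was 0.45 and 0.46 in these fits, beside 0.44 with all samples. Past both thresholds stood 4 members without the third parental sample. FANCD2, FANCI, EME1, BRIP1, EXO1 and CHEK1 rose in each of the 6 leave-one-out fits, which each omit 1 sample, and the other 10 that rose in HepG2 lost the call in 1 to 6 of them.

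The changes in Huh7 followed base composition. Among the 40 members, the log2 fold change in Huh7 had a Spearman correlation of 0.77 with the GC content of the gene's exons, and over all genes tested it was 0.63. In HepG2 the same values were -0.28 and 0.03. The members are richer in A and T than most genes, with a median GC content of 43.1% against 47.4% over the genes tested in Huh7. Of the 25 members under 45% GC, 22 fell in Huh7, and of all genes below that mark 67.8% fell. Of the 15 members at or above it, 2 fell and 5 rose, beside 17.1% and 49.8% of all genes there. When the GC trend of each library was removed, 16 members were lower and 8 higher in Huh7, with a median of -0.13, and of all genes 31.3% were lower and 32.3% higher. In HepG2 22 were then higher and 2 lower, with a median of 0.35, and of all genes 16.1% were higher and 18.3% lower. UBE2T, higher, was then the 1 member past both thresholds in Huh7. All 16 members that rose in HepG2 were called higher there too, while 12 of the 24 that fell in Huh7 were again called lower: FANCL, FANCM, FANCI, BRCA1, PALB2, BRIP1, XRCC3, RAD52, BLM, MRE11, ATM and CHEK1. Of these 12, XRCC3 and RAD52 were then lower by more, at -0.86 and -0.87. The rest were lower by less, such as FANCL at -0.80, ATM at -0.73, MRE11 at -0.50, FANCM at -0.42, BLM at -0.28 and CHEK1 at -0.24. The sign turned for 6 of the 24, namely BARD1, BRCA2, XRCC2, RAD50, NBN and MSH3, of which XRCC2 and NBN were called higher. FANCA, SLX4, MUS81 and 1 other member were called lower in Huh7 only without the trend, and FANCG, SLX4, BRCA2, XRCC2, ATM and ATR were called higher in HepG2 only without it. Whether the GC trend arose in the cells or in the libraries was not tested.

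**Figure D1:**
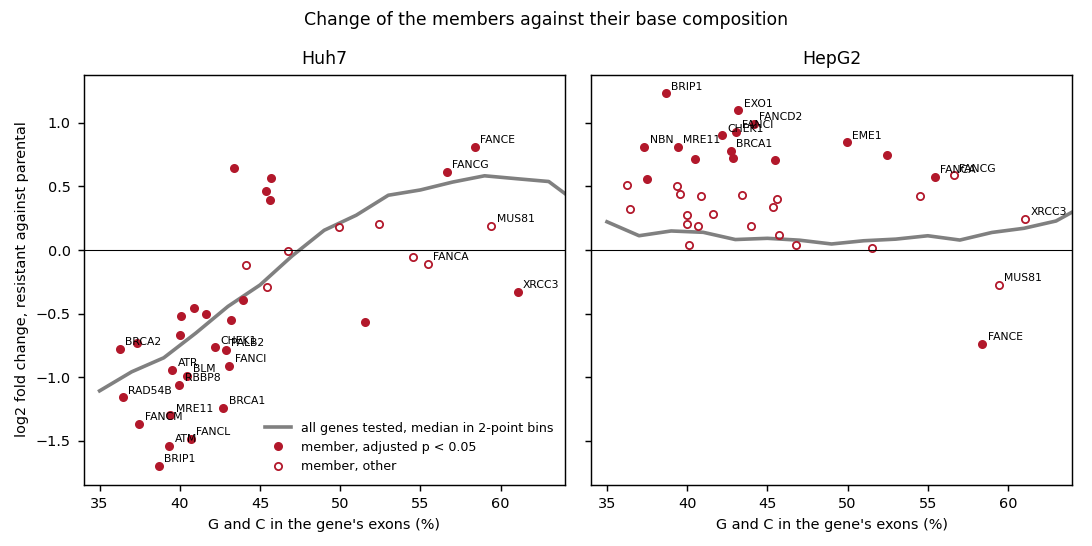
Log2 fold change of resistant against parental cells (y axis) against the percentage of G and C in each gene's exons (x axis), in Huh7 (left) and HepG2 (right). Red points are 37 of the 40 members, filled where called, and the grey line is the median of all genes tested in bins 2 percentage points wide that hold at least 50 genes, which climbs with GC content in Huh7 and stays near 0 in HepG2; many members of low GC content lie below it in Huh7, and most lie above it in HepG2.

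The response differed between the lines for most members. Of the 40, 10 fell in Huh7 and rose in HepG2 (FANCM, FANCI, BRCA1, PALB2, BRIP1, BLM, MRE11, NBN, EXO1 and CHEK1), 1 rose in Huh7 and fell in HepG2 (FANCE), and none was called in the same direction in both. Of the 10688 genes tested in both lines, 4.11% fell in Huh7 and rose in HepG2, 3.42% did the reverse, 3.49% rose in both and 2.36% fell in both. These member calls turned in part on the GC trend. With it removed, members such as FANCD2, XRCC2 and NBN were called higher in both lines, and MUS81 was called lower in both. EXO1 and FANCE were then not called in Huh7 (adjusted p = 0.163 and 0.0727). A test of the difference itself, the interaction of line and resistance over all 12 samples, was past 0.05 for 32 members. The response was more negative in Huh7 for 30 of them and more positive for FANCE and PMS2, among 13800 genes of which 33.2% and 23.1% were called that way. The difference was also beyond 1 on the log2 scale for 17 members on the negative side and for FANCE on the positive side, where 18.2% and 10.6% of all genes stood. With the GC trend removed, 23 members were more negative in Huh7 and 4 more positive, beside 26.9% and 28.4% of all genes. The difference was then called and beyond 1 for 8 members on the negative side and 1 on the positive side. Of all 13800 genes, 1323 and 1470 stood there.

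**Figure D2:**
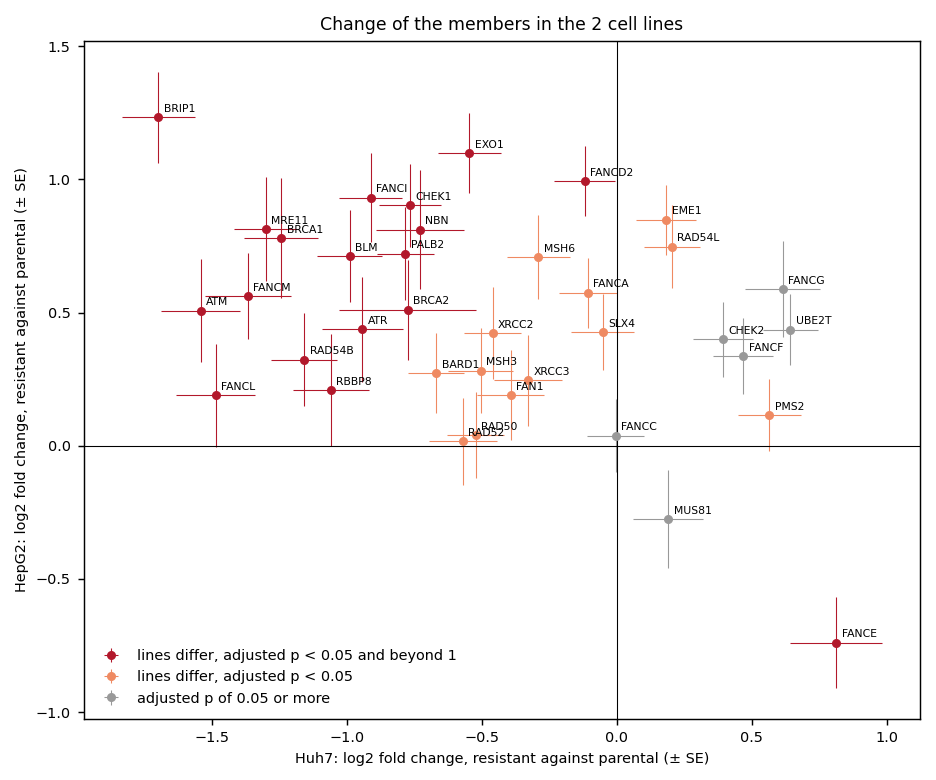
Log2 fold change of 37 of the 40 members in Huh7 (x axis) and in HepG2 (y axis), resistant against parental, with bars of 1 SE. Colours give the interaction test; 35 of the 37 points lie above 0 in HepG2 and 9 lie above 0 in Huh7, and BRIP1 at the upper left and FANCE at the lower right lie farthest apart in opposite directions.

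Promoters were read for the sequences that cell-cycle genes share. Of the 40 members, 37 have a window in the RefSeq table (build GRCh38.p14), which runs from 250 bases before a transcript start to 50 bases after it, and a gene counts where any of its windows holds the motif on either strand. Letters known to bind E2F factors, which activate S-phase genes (TTTGGCGC, TTTCCCGC, TTTGCCGC or TTTCGCGC), stood in the windows of 8 members (21.6%), namely EXO1, FANCA, FANCC, FANCD2, MSH3, MSH6, PMS2 and XRCC2, and of 3.99% of 27305 genes. The CCAAT box, a binding site of the factor NF-Y, stood in 17 members (45.9%) and 39.7% of all genes. The letters TTTGAA or TTCGAA, found in the elements called CHR of late cell-cycle genes, stood in 4 members (10.8%) and 19.5% of all genes. Of the 14 members with a window that rose in HepG2, 4 held the E2F letters and 10 the CCAAT box. The other holders of the E2F letters, FANCC, MSH3, PMS2 and XRCC2, were not called in HepG2. A match is a description of letters and is not shown to be a site. The windows of FANCD2, EXO1 and MSH6 printed here hold the E2F letters, in capitals, at the transcript start of genes that rose in resistant HepG2, and the last is that of FANCE, which fell there and holds none. Each runs from 60 bases before the start to 20 bases after it, and the MSH6 window also holds a CCAAT box on the other strand, left in lower case.
FANCD2 (chr3:10026377-10026456, plus strand): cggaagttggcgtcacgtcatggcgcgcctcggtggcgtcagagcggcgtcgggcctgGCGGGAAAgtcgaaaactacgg
EXO1 (chr1:241848144-241848223, plus strand): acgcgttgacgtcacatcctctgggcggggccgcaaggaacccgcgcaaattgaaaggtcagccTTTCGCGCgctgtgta
MSH6 (chr2:47783085-47783164, plus strand): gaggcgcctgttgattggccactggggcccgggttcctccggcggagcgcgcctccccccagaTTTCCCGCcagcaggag
FANCE (chr6:35452278-35452357, plus strand): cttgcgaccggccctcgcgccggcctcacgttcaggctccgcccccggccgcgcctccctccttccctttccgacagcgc
BRIP1 and BLM, helicase genes that fell in Huh7 and rose in HepG2, each hold 3 CCAAT boxes, shown in capitals on either strand, in the bases just before the start.
BRIP1 (chr17:61863529-61863658, minus strand): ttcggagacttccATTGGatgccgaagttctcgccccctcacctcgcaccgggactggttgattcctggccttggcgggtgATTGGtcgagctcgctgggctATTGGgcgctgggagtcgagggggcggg
BLM (chr15:90717196-90717345, plus strand): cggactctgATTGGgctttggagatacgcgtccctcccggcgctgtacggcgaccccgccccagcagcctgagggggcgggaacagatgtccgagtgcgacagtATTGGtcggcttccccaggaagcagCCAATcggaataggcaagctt

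The core complex and its enzyme UBE2T changed in mixed directions. Of its 8 genes, 4 rose (FANCE, FANCG, FANCF and UBE2T) and 2 fell (FANCL and FANCM) in Huh7, and 2 rose (FANCA and FANCM) and 1 fell (FANCE) in HepG2. FANCL (ENSG00000115392, chr2:58159243-58241372, minus strand), the ubiquitin ligase of the complex, was at 16.9, 21.7 and 25.1 FPKM in parental and 6.93, 6.43 and 7.26 FPKM in resistant Huh7. Every resistant sample was below every parental one, with a log2 fold change of -1.48 (SE 0.15, adjusted p = 7.46e-05). In HepG2 the levels of FANCL were 12.7, 12.2 and 11.9 FPKM in parental and 19.05, 11.02 and 13.3 FPKM in resistant samples. These overlapped, and the fold change was 0.19 (SE 0.19, adjusted p = 0.509), with a 95% interval of -0.25 to 0.63. UBE2T (ENSG00000077152, chr1:202331657-202341980, minus strand), the conjugating enzyme that works with FANCL, went the other way in Huh7. It stood at 15.4, 16.4 and 15.6 FPKM in parental and 22.97, 26.9 and 25.9 FPKM in resistant Huh7, a log2 fold change of 0.64 (SE 0.10, adjusted p = 0.000652) without overlap. In HepG2, UBE2T was at 8.81, 9.95 and 8.58 FPKM before and 11.9, 12.5 and 13.6 FPKM after resistance, without overlap but at an adjusted p of 0.0521. The ligase and its enzyme, at like levels in parental Huh7, thus stood far apart in resistant Huh7: the ratio of FANCL to UBE2T was 1.10, 1.33 and 1.61 in the parental and 0.302, 0.239 and 0.280 in the resistant samples.

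FANCM (ENSG00000187790, chr14:45135940-45200890, plus strand), a DNA translocase that recruits the core complex to stalled forks, fell in Huh7 and rose in HepG2. Its levels in Huh7 were 6.36, 7.30 and 9.71 FPKM in parental and 2.80, 2.32 and 2.03 FPKM in resistant samples. Its levels in HepG2 were 2.08, 1.80 and 2.18 FPKM in parental and 4.30, 2.91 and 3.25 FPKM in resistant samples. In neither line did the groups overlap, and the log2 fold changes were -1.37 (SE 0.16, adjusted p = 0.00015) and 0.56 (SE 0.16, adjusted p = 0.0427). The HepG2 call was gone in all 6 leave-one-out fits (adjusted p = 0.0533 to 0.127) and with both other scalings. FANCE (ENSG00000112039, chr6:35452356-35467103, plus strand), the subunit that bridges the core complex to FANCD2, changed the other way in each line. It was at 5.54, 5.32 and 3.61 FPKM in parental and 10.8, 7.63 and 9.18 FPKM in resistant Huh7. The HepG2 levels were 16.7, 21.3 and 15.2 FPKM in parental and 9.29, 11.8 and 9.42 FPKM in resistant samples. The parental lines lay far apart and the resistant lines close together, with log2 fold changes of 0.81 (SE 0.17, adjusted p = 0.00277) in Huh7 and -0.74 (SE 0.17, adjusted p = 0.0196) in HepG2. Without the GC trend the Huh7 change of FANCE was 0.26 (adjusted p = 0.0727), and the HepG2 call was lost without the third resistant or the first parental sample. FANCG (ENSG00000221829, chr9:35073835-35080016, minus strand), another core subunit, stood at 7.37, 5.42 and 6.51 FPKM in parental and 11.7, 8.92 and 10.5 FPKM in resistant Huh7, which did not overlap, with a log2 fold change of 0.61 (SE 0.14, adjusted p = 0.00419). Without the GC trend its change there was 0.09 (adjusted p = 0.435). In HepG2, FANCG was at 2.02, 3.08 and 2.13 FPKM and 3.37, 4.87 and 4.12 FPKM, also without overlap, at 0.59 (SE 0.18, adjusted p = 0.0524), and it was called there without the GC trend, at 0.50 (adjusted p = 0.00831).

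FANCF, an adaptor within the core complex, rose in Huh7 (log2 fold change 0.47) and had a value of 0.34 in HepG2 that was not called. FANCA, the core subunit most often mutated in Fanconi anaemia, rose in HepG2 from 5.56 ± 0.524 to 8.75 ± 0.194 FPKM (mean ± SD, n = 3) and had a value of -0.11 in Huh7. The HepG2 call of FANCA was gone in 3 of the 6 leave-one-out fits. Without the GC trend FANCA was lower in resistant Huh7, at -0.59 (adjusted p = 0.000864). FANCC was within 0.04 of no change in both lines, with 95% intervals of -0.24 to 0.23 in Huh7 and -0.28 to 0.35 in HepG2.

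**Figure D3:**
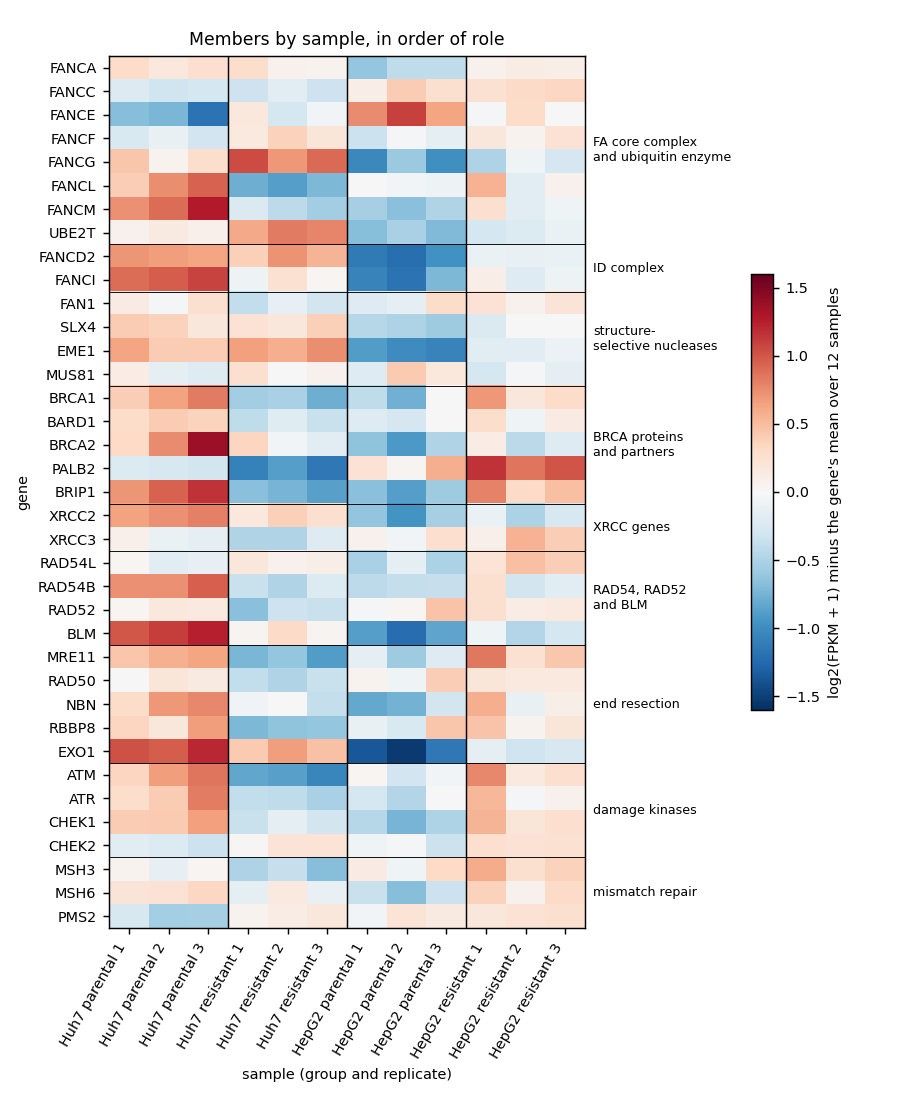
Level of 37 of the 40 members (rows, grouped by role) in each of the 12 samples (columns), as log2(FPKM + 1) minus the gene's mean over the 12 samples, with red above and blue below that mean and the colour scale ending at 1.6 on either side. Over all 40 members, parental Huh7 has the highest group mean for 22 and parental HepG2 the lowest for 19, the latter including FANCD2, FANCI, EXO1 and BLM.

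Of the pair that receives the ubiquitin, FANCI fell in Huh7 and FANCD2 was not called there, and both rose in HepG2. FANCD2 (ENSG00000144554, chr3:10026414-10101930, plus strand) was at 21.9, 21.4 and 20.8 FPKM in parental and 17.3, 22.1 and 19.6 FPKM in resistant Huh7. The groups overlapped, at -0.12 (SE 0.11, adjusted p = 0.364), with a 95% interval of -0.38 to 0.14, and without the GC trend the value was 0.21 (adjusted p = 0.0213). FANCI (ENSG00000140525, chr15:89243949-89317261, plus strand) was at 26.9, 28.4 and 30.7 FPKM in parental and 13.2, 16.9 and 14.4 FPKM in resistant Huh7. It fell by 0.91 on the log2 scale (SE 0.12, adjusted p = 0.000232), without overlap. In HepG2, FANCD2 rose from 5.41, 5.13 and 6.17 FPKM to 12.1, 11.9 and 12.1 FPKM, a log2 fold change of 0.99 (SE 0.13, adjusted p = 0.00213). FANCI rose there from 6.19, 5.65 and 8.15 FPKM to 15.2, 12.04 and 13.3 FPKM, a log2 fold change of 0.93 (SE 0.17, adjusted p = 0.0079). Neither gene overlapped between the HepG2 groups. The ratio of FANCI to FANCD2 was therefore 1.23, 1.33 and 1.48 in parental and 0.762, 0.763 and 0.736 in resistant Huh7, and 1.14, 1.10 and 1.32 in parental and 1.25, 1.01 and 1.10 in resistant HepG2. Their GC contents are close, at 43.1% for FANCI and 44.2% for FANCD2.

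Of the nucleases that cut at crosslinks and joint molecules, FAN1, SLX4, EME1 and MUS81, FAN1 fell in Huh7 (log2 fold change -0.39) and the other 3 had values between -0.05 and 0.19 that were not called. These calls turned on the GC trend: without it FAN1 was at -0.04 (adjusted p = 0.683), and SLX4 and MUS81 were lower, at -0.50 (adjusted p = 0.00144) and -0.36 (adjusted p = 0.00396). The FAN1 call was also gone in 3 of the 6 leave-one-out fits. In HepG2 EME1, the partner that MUS81 needs for its activity, rose from 2.64 ± 0.224 to 5.55 ± 0.202 FPKM (mean ± SD, n = 3), at 0.85 (SE 0.13, adjusted p = 0.00427). MUS81 had a value of -0.28 there that was not called, and without the GC trend it was lower, at -0.41 (adjusted p = 0.0454). The ratio of EME1 to MUS81 in HepG2 was 0.684, 0.368 and 0.422 in parental and 1.37, 1.10 and 1.29 in resistant samples, while in Huh7 it lay between 1.67 and 2.10 in all 6.

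All 5 BRCA genes and partners fell in Huh7, and BRCA1, PALB2 and BRIP1 rose in HepG2. They too are all under 45% GC, where 67.8% of all genes fell in Huh7 and 10.2% rose in HepG2. With the GC trend removed, 3 of the 5 were lower in Huh7 (BRCA1, PALB2 and BRIP1), with a median of -0.32. BRIP1 (ENSG00000136492, chr17:61681266-61863521, minus strand), the helicase that binds BRCA1, had the most negative response of the 40 in Huh7 and the most positive in HepG2. It was at 10.9, 12.99 and 15.2 FPKM in parental and 3.56, 3.35 and 2.98 FPKM in resistant Huh7. In HepG2 it was at 3.57, 2.93 and 3.87 FPKM in parental and 11.6, 7.96 and 9.11 FPKM in resistant samples. The groups stood clear of each other in both lines, so that resistant HepG2 lay near parental Huh7 and resistant Huh7 near parental HepG2. The log2 fold changes were -1.70 (SE 0.14, adjusted p = 3.27e-05) and 1.23 (SE 0.17, adjusted p = 0.00264), and they differed by -2.93 (SE 0.22, adjusted p = 2.45e-06). With the GC trend removed, BRIP1 kept both calls, at -0.84 (adjusted p = 0.000122) in Huh7 and 1.11 (adjusted p = 0.000185) in HepG2. Its promoter, with 3 CCAAT boxes, is printed above.

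BRCA1 (ENSG00000012048, chr17:43044295-43170245, minus strand), the ligase subunit that promotes resection and recombination, was at 12.2, 14.7 and 16.8 FPKM in parental and 5.82, 5.99 and 4.86 FPKM in resistant Huh7. In HepG2 it was at 6.58, 4.88 and 9.04 FPKM in parental and 15.2, 10.3 and 11.3 FPKM in resistant samples. No samples overlapped in either line, and the log2 fold changes were -1.24 (SE 0.14, adjusted p = 0.00012) and 0.78 (SE 0.22, adjusted p = 0.0431). The HepG2 call was gone in every leave-one-out fit but the one without the third parental sample, and with both other scalings (adjusted p = 0.0569 and 0.0648). BARD1, the other subunit of this ligase, fell less in Huh7, by 0.67 on the log2 scale, and had a value of 0.27 in HepG2 that was not called. Its Huh7 direction turned without the GC trend, at 0.08 (adjusted p = 0.313). The ratio of BRCA1 to BARD1 was 0.657, 0.735 and 0.862 in parental and 0.527, 0.462 and 0.423 in resistant Huh7, and 0.513, 0.398 and 0.601 in parental and 0.826, 0.725 and 0.685 in resistant HepG2. The ratio was thus lower in all resistant than in all parental Huh7 samples and higher in all resistant than in all parental HepG2 samples.

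BRCA2 (ENSG00000139618, chr13:32315474-32400266, plus strand), a mediator of strand exchange, had the widest spread relative to its mean in parental Huh7. Its levels in Huh7 were 12.98, 18.04 and 28.1 FPKM in parental and 13.3, 9.89 and 8.94 FPKM in resistant samples. The groups overlapped through 1 sample each, and the log2 fold change was -0.77 (SE 0.26, adjusted p = 0.0241). Of all members it has the lowest GC content (36.3%), and without the GC trend the sign turned, at 0.25 (adjusted p = 0.262). The call was also lost without the second resistant, the third resistant or the third parental sample, with adjusted p-values of 0.0725, 0.0562 and 0.0566. In HepG2, BRCA2 was at 6.17, 4.95 and 7.08 FPKM in parental and 11.3, 7.31 and 8.78 FPKM in resistant samples, which did not overlap but were not called, at 0.51 (SE 0.19, adjusted p = 0.0897), although called without the GC trend, at 0.37 (adjusted p = 0.011). PALB2 (ENSG00000083093, chr16:23603160-23641310, minus strand), the link between BRCA1 and BRCA2, was at 11.5, 11.2 and 10.9 FPKM in parental and 5.86, 6.88 and 5.62 FPKM in resistant Huh7. It was at 16.1, 13.99 and 20.9 FPKM in parental and 31.5, 25.5 and 28.3 FPKM in resistant HepG2. No samples overlapped, and the log2 fold changes were -0.78 (SE 0.11, adjusted p = 0.000308) and 0.72 (SE 0.17, adjusted p = 0.0234), and 4 of the 6 leave-one-out fits no longer called the HepG2 change.

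**Figure D4:**
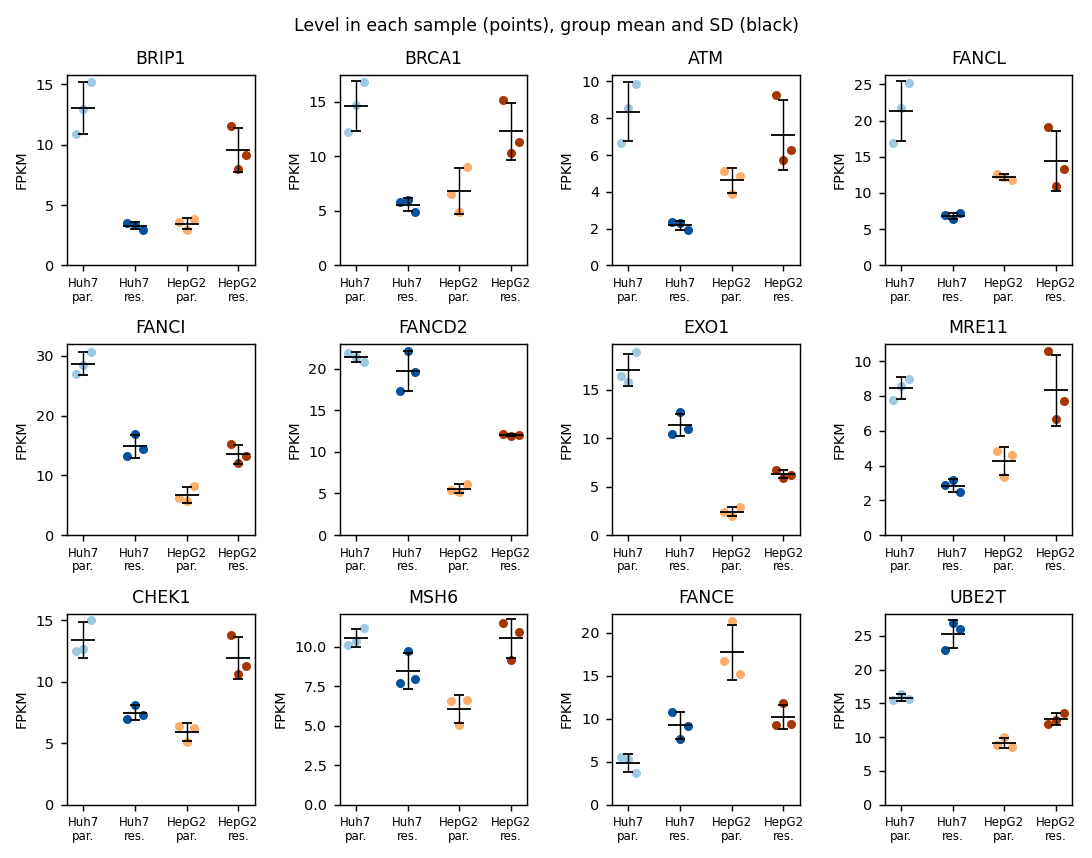
FPKM (y axis, from 0) of 12 members in each sample of parental (par.) and resistant (res.) Huh7 and HepG2, with points for samples and black bars for the mean and SD of 3 samples. BRIP1, BRCA1, FANCI, MRE11 and CHEK1 are lower in resistant than parental Huh7 and higher in resistant than parental HepG2, FANCE shows the opposite, and FANCD2 overlaps between the Huh7 groups.

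XRCC2 and XRCC3, which act in homologous recombination, fell in Huh7, with log2 fold changes of -0.46 (SE 0.10, adjusted p = 0.00426) and -0.33 (SE 0.13, adjusted p = 0.0436). The direction of XRCC2 turned without the GC trend, at 0.20 (adjusted p = 0.0135), and the XRCC3 call was gone in 4 of the 6 leave-one-out fits. Neither was called in HepG2, at 0.42 and 0.25, and without the GC trend XRCC2 was called higher there, at 0.31 (adjusted p = 0.0242). XRCC2 had its highest level in parental Huh7, at 17.5 ± 1.00 FPKM, and XRCC3 was low throughout, with 2.57 ± 0.324 FPKM there.

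Of the genes that act on joint molecules, BLM (ENSG00000197299, chr15:90717327-90816165, plus strand), the helicase lost in Bloom syndrome, was at 11.4, 12.4 and 13.8 FPKM in parental and 5.43, 6.68 and 5.42 FPKM in resistant Huh7. HepG2 had BLM at 2.38, 1.68 and 2.46 FPKM in parental and 4.95, 3.50 and 4.14 FPKM in resistant samples. The groups lay apart in both lines, with log2 fold changes of -0.99 (SE 0.12, adjusted p = 0.000177) and 0.71 (SE 0.17, adjusted p = 0.0233), and the HepG2 call was gone in 3 of the 6 leave-one-out fits. RAD54B (ENSG00000197275, chr8:94371960-94475109, minus strand), a translocase related to RAD54L, was at 3.48, 3.51 and 4.25 FPKM in parental and 1.11, 0.947 and 1.33 FPKM in resistant Huh7. It fell there by 1.16 on the log2 scale (SE 0.12, adjusted p = 9.7e-05), and without the GC trend the value was -0.14 (adjusted p = 0.385). In HepG2, RAD54B was at 1.03, 1.07 and 1.10 FPKM and 2.24, 1.21 and 1.41 FPKM, low in both groups, at 0.32 (SE 0.18, adjusted p = 0.221). RAD54L, a translocase that acts in strand exchange, rose in HepG2, at 0.75 (SE 0.16, adjusted p = 0.0143), and was not called in Huh7, at 0.20. Its HepG2 call was gone in 2 of the 6 leave-one-out fits. RAD52, a mediator of strand annealing, fell in Huh7, at -0.57 (SE 0.13, adjusted p = 0.00365).

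All 5 end resection genes fell in Huh7, and MRE11, NBN and EXO1 rose in HepG2. All 5 are under 45% GC, and of all genes below that mark 67.8% fell in Huh7 and 10.2% rose in HepG2. With the GC trend removed, 1 of the 5 was lower in Huh7 (MRE11) and 1 higher (NBN), with a median of -0.12. MRE11 (ENSG00000020922, chr11:94415578-94493908, minus strand), the nuclease that starts resection, was at 7.77, 8.55 and 9.01 FPKM in parental and 2.87, 3.19 and 2.46 FPKM in resistant Huh7. The HepG2 levels were 4.82, 3.37 and 4.61 FPKM in parental and 10.6, 6.67 and 7.73 FPKM in resistant samples. Its groups did not overlap in either line, with log2 fold changes of -1.30 (SE 0.12, adjusted p = 5.08e-05) and 0.81 (SE 0.20, adjusted p = 0.0233). Leaving out the third resistant or the second parental HepG2 sample ended the HepG2 call of MRE11. NBN (ENSG00000104320, chr8:89933336-90003228, minus strand), the subunit that binds ATM, was at 6.83, 9.37 and 9.89 FPKM in parental and 5.18, 5.40 and 3.90 FPKM in resistant Huh7. Its HepG2 levels were 2.62, 2.80 and 4.23 FPKM in parental and 8.63, 4.90 and 5.86 FPKM in resistant samples. The groups were separate in both lines, and the log2 fold changes were -0.73 (SE 0.16, adjusted p = 0.00375) and 0.81 (SE 0.22, adjusted p = 0.037). For NBN the Huh7 direction turned without the GC trend, at 0.23 (adjusted p = 0.0478), and in HepG2 it was no longer called when any 1 of 4 samples was left out, among them the first resistant sample, whose level of 8.63 FPKM was the highest. RAD50, which joins MRE11 and NBN in this complex, was at 1.17 ± 0.144 FPKM in parental and 0.506 ± 0.0641 FPKM in resistant Huh7 (mean ± SD, n = 3), and its HepG2 value was 0.04, not called. The Huh7 direction of RAD50 turned without the GC trend, at 0.22 (adjusted p = 0.134).

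RBBP8 (ENSG00000101773, chr18:22798261-23026488, plus strand), which encodes CtIP, the cofactor of MRE11, was at 4.21, 3.66 and 5.57 FPKM in parental and 1.51, 1.63 and 1.67 FPKM in resistant Huh7. It fell without overlap, at -1.06 (SE 0.14, adjusted p = 0.000269), and without the GC trend the value was -0.30 (adjusted p = 0.0576). In HepG2, RBBP8 was at 2.80, 2.49 and 4.62 FPKM and 4.67, 3.28 and 3.73 FPKM, which overlapped, at 0.21 (SE 0.21, adjusted p = 0.506). EXO1 (ENSG00000174371, chr1:241847967-241895148, plus strand), the exonuclease that extends resection and also acts in mismatch repair, was at 16.5, 15.8 and 18.9 FPKM in parental and 10.5, 12.7 and 10.9 FPKM in resistant Huh7. It was at 2.37, 1.99 and 2.90 FPKM in parental and 6.70, 5.92 and 6.23 FPKM in resistant HepG2. Again no samples overlapped, and the log2 fold changes were -0.55 (SE 0.12, adjusted p = 0.003) and 1.10 (SE 0.15, adjusted p = 0.00253). The Huh7 change was -0.12 (adjusted p = 0.163) without the GC trend.

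Of the damage kinases, ATM, ATR and CHEK1 fell in Huh7 and CHEK2 rose. ATM (ENSG00000149311, chr11:108222484-108369102, plus strand), which responds to double-strand breaks, was at 6.65, 8.56 and 9.86 FPKM in parental and 2.37, 2.29 and 1.91 FPKM in resistant Huh7. ATM in HepG2 was at 5.14, 3.86 and 4.86 FPKM in parental and 9.26, 5.72 and 6.27 FPKM in resistant samples. Both lines were without overlap, but only the Huh7 change was called, at -1.54 (SE 0.15, adjusted p = 6.71e-05) against 0.51 (SE 0.19, adjusted p = 0.098) in HepG2. Without the GC trend the Huh7 change of ATM was -0.73 (adjusted p = 0.000416). The HepG2 value of ATM was called without the GC trend, at 0.39 (adjusted p = 0.0205), with limma-voom (0.0465) and with all 12 samples in 1 fit (0.0447). ATR (ENSG00000175054, chr3:142449235-142578826, minus strand), which responds to stalled forks, was at 6.02, 6.71 and 9.18 FPKM in parental and 3.40, 3.37 and 3.04 FPKM in resistant Huh7. It fell there, at -0.94 (SE 0.15, adjusted p = 0.00063), and without the GC trend the value was -0.15 (adjusted p = 0.207). In HepG2, ATR was at 3.78, 3.18 and 4.81 FPKM and 7.37, 4.66 and 5.08 FPKM, which overlapped, at 0.44 (SE 0.20, adjusted p = 0.15), and which were called without the GC trend, at 0.32 (adjusted p = 0.0386).

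CHEK1 (ENSG00000149554, chr11:125625136-125676255, plus strand), the effector kinase of ATR, was at 12.5, 12.6 and 15.02 FPKM in parental and 6.92, 8.13 and 7.31 FPKM in resistant Huh7. It was at 6.41, 5.07 and 6.19 FPKM in parental and 13.8, 10.7 and 11.2 FPKM in resistant HepG2. The groups stood apart in both lines, and the log2 fold changes were -0.76 (SE 0.11, adjusted p = 0.000485) and 0.90 (SE 0.16, adjusted p = 0.00669). CHEK2, the effector kinase of ATM, was higher in resistant Huh7, at 0.39 (SE 0.11, adjusted p = 0.0118), and had a value of 0.40 in HepG2 that was not called. The interaction value of CHEK2 was -0.01, with an adjusted p of 0.978, whereas that of CHEK1 was -1.67 (SE 0.18, adjusted p = 3.02e-05).

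The mismatch repair genes gave a different picture for each member. MSH6 (ENSG00000116062, chr2:47695530-47810101, plus strand), the subunit that recognises single mispairs, was at 10.1, 10.3 and 11.2 FPKM in parental and 7.72, 9.76 and 7.94 FPKM in resistant Huh7. All resistant samples lay lower, but at -0.29 (SE 0.12, adjusted p = 0.0505) the change missed the threshold. In HepG2, MSH6 rose from 6.57, 5.04 and 6.62 FPKM to 11.5, 9.14 and 10.95 FPKM, without overlap, at 0.71 (SE 0.16, adjusted p = 0.0176). This HepG2 call was lost without the third resistant sample (adjusted p = 0.0874). MSH3, which recognises larger loops, fell in Huh7, at -0.50 (SE 0.12, adjusted p = 0.00526), and its HepG2 value of 0.28 was not called. The Huh7 direction of MSH3 turned without the GC trend, at 0.08 (adjusted p = 0.47). PMS2, the endonuclease of the pathway, was higher in resistant Huh7, at 0.56 (SE 0.12, adjusted p = 0.00261), and its HepG2 value was 0.12, not called. The ratio of MSH3 to MSH6, alternative partners in the recognition of mismatches, was 1.34, 1.49 and 1.54 in parental and 1.09, 1.06 and 0.968 in resistant HepG2.

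Ratios of partners were compared in each line for 7 pairs, which gave 14 exact two-sided permutation tests. With 3 samples against 3, no exact p can fall below 0.1. In Huh7 the ratios FANCI over FANCD2, BRCA1 over BARD1, MRE11 over NBN, FANCL over UBE2T and MSH3 over MSH6 did not overlap between the groups (exact p = 0.1, 0.175 after Benjamini-Hochberg adjustment over the 14 tests). In HepG2 this held for BRCA1 over BARD1, EME1 over MUS81 and MSH3 over MSH6 at the same p-values. Ratios of other gene pairs were not computed, so no share over all pairs stands beside these counts. Of all genes tested in Huh7, 32.7% rose and 37.4% fell, so groups that stand apart need not be particular to these pairs. The Huh7 groups of MSH3 over MSH6 all but touched, with 0.695 after rounding in both the first resistant and the second parental sample. BRCA2 over PALB2 overlapped in both lines, with 1.77 ± 0.740 in parental and 1.77 ± 0.441 in resistant Huh7 (mean ± SD, n = 3), and with values between 0.287 and 0.383 in the 6 HepG2 samples.

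**Figure D5:**
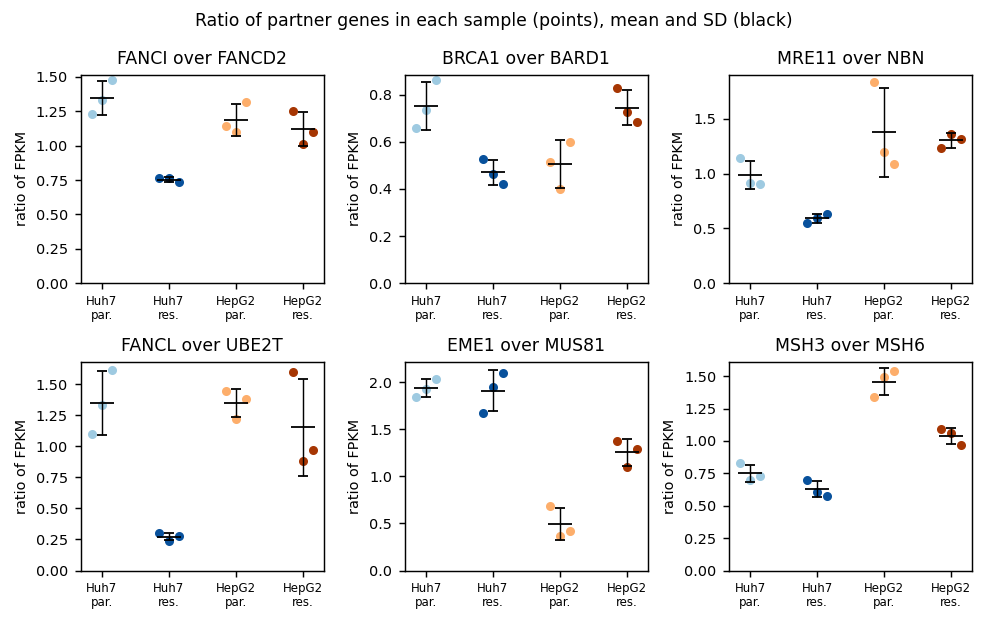
Ratio of the FPKM of partner genes (y axis, from 0) in each sample of parental (par.) and resistant (res.) cells, with points for samples and black bars for the mean and SD of 3. FANCI over FANCD2, MRE11 over NBN and FANCL over UBE2T are lower in resistant Huh7 and overlap in HepG2, EME1 over MUS81 is higher in resistant HepG2, and BRCA1 over BARD1 is lower in resistant Huh7 and higher in resistant HepG2.

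The untreated lines differed at the outset. Of the 40 members, 25 were higher and 5 lower in parental Huh7 than in parental HepG2, among 12796 genes of which 39.0% and 26.2% were called that way. EXO1, BLM, FANCI and FANCD2 differed most in this direction, with log2 differences of 2.40 (SE 0.15, adjusted p = 3.75e-06), 2.10 (SE 0.15, adjusted p = 8.56e-06), 1.97 (SE 0.15, adjusted p = 1.24e-05) and 1.77 (SE 0.12, adjusted p = 7.05e-06). FANCE was lowest relative to HepG2, at -1.69 (SE 0.19, adjusted p = 9.63e-05), and PALB2, FANCC, PMS2 and 1 other member were also lower in parental Huh7. Without the second parental Huh7 sample, 2 members and not 5 were lower. Within each parental line, the highest group means in FPKM were those of FANCI (28.7 ± 1.92), FANCD2 (21.4 ± 0.591) and FANCL (21.3 ± 4.12) in parental Huh7 and of FANCE (17.7 ± 3.20) and PALB2 (17 ± 3.54) in parental HepG2. With the GC trend removed, 20 members were higher and 7 lower in parental Huh7, beside 33.8% of all genes in each direction. These comparisons use the same parental samples as those within each line, so a high parental level enters both.

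Of 75 further genes of the same pathways, 68 were tested in Huh7, where 16 rose and 31 fell, and 69 in HepG2, where 22 rose and 1 fell. Of all genes tested, 32.7% rose and 37.4% fell in Huh7, and 11.6% rose and 8.43% fell in HepG2. The medians of the further genes were -0.16 in Huh7 and 0.39 in HepG2. With the GC trend removed, 20 of them were higher and 23 lower in Huh7, with a median of -0.03. In HepG2 29 were then higher and 4 lower, with a median of 0.28. The recombination and resolution list went the way of the members, with 2 higher and 15 lower of 21 in Huh7 and 7 higher of 21 in HepG2, and with the GC trend removed 3 were higher and 10 lower in Huh7. Within it the helicase WRN (log2 fold change -1.63) and the resolvase GEN1 (-1.50) fell in Huh7 and RECQL4 rose in both lines (0.60 and 1.27). USP1, which removes the ubiquitin from FANCD2, fell in Huh7 (-1.14), as did REV3L, the catalytic subunit of a polymerase that bypasses lesions (-1.43). Of the further Fanconi genes, 2 rose and 5 fell of 11 in Huh7, and 2 rose and 1 fell of 12 in HepG2. The checkpoint and chromatin list was divided in Huh7, with 9 higher and 8 lower of 24, and had 6 higher in HepG2. RPA2, which covers single-stranded DNA, rose in Huh7 (0.94), RIF1 fell there (-1.25), and the histone gene H2AFX rose in both (0.91 and 1.40). Of the 12 further mismatch repair genes tested, 3 rose and 3 fell in Huh7 and 7 rose in HepG2, among them PCNA, the replication clamp (1.18), and the ligase LIG1 (1.20).

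Most genes of the proliferation list rose in both lines. Of its 20 genes, 13 rose and 5 fell in resistant Huh7, with a median log2 fold change of 0.68, and 12 rose in resistant HepG2, with a median of 0.73. Its summed level was 832 to 905 FPKM in parental and 1227 to 1282 FPKM in resistant Huh7, and 581 to 612 FPKM in parental and 925 to 997 FPKM in resistant HepG2. MCM5, a subunit of the replicative helicase, rose in both lines (1.36 and 1.35), whereas TOP2A (-1.08) and CCNE2 (-0.92) fell in Huh7. With the GC trend removed, 16 of the 20 were higher and 1 lower in Huh7. The part of proliferation in the levels of the members was not tested.

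Some members share exons with other genes, and whether the counting used strand is not given in the sources used here. In GENCODE 29, 26 of the 40 have an exon overlapped by another annotated gene, 19 of them by a protein-coding one, such as ATM with NPAT and C11orf65, FANCI with POLG, CHEK1 with STT3A and FANCL with VRK2. Others are EME1 with LRRC59, MUS81 with CFL1 and EFEMP2, and RAD54B with FSBP. Reads in these stretches may belong to either gene, which bears on the ratios of partners as well. Annotated pseudogenes named after a member exist for 5, with 11 for PMS2, 4 for CHEK2 and 1 each for FANCD2, MRE11 and RBBP8, so the levels of these genes, PMS2 and CHEK2 above all, are uncertain to that extent.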

How the data were processed

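Each of the 12 tables holds 1 value per gene for 1 sample. The authors deposited these values without stating their unit, and they were read as FPKM: in single-exon genes the product of value and exon length falls on whole multiples of 1 step per sample, and 96.2% to 96.4% of the values of up to 200 reads come within 0.05 of a whole number of reads. The submitters' processing notes name GRCh38 and bcl2fastq. The aligner and the counting program are not given in the sources used here; RNA extraction is described differently in the labels and in the paper. Groups and replicate numbers come from the labels.

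Genes under Ensembl identifiers with at least 1 FPKM in at least 3 samples of a comparison were tested with limma 3.58.1 in R 4.3.3, on log2(FPKM + 1) with a trend on mean level, so that a fold change understates that of low genes. Calls need a Benjamini-Hochberg adjusted p under 0.05 over all genes tested. GC content, exon length and positions come from GENCODE 29 (GRCh38). The fits were tested on simulated reads in which 200 genes changed 3-fold and no GC trend was built in. They recovered 97% of these genes in Huh7 and 99% in HepG2, with 13 and 19 other genes called. Smaller changes and a GC trend were not simulated, so this does not speak to calls that turn on them. The members and all other lists, and the pairs of partners, were chosen with earlier results of these data known. Values per sample are given for members past both thresholds, for the 3 higher and 3 lower called members of largest change in each line, for members whose lines differ by more than 1, and for FANCD2, BRCA1, BRCA2, ATM and MSH6. Removal of the GC trend used a lowess curve (span 0.3) per sample. The other alternatives were a pseudocount of 0.1, other filters and scalings, limma without a trend, limma-voom on reads calculated back, all 12 samples in 1 fit, the replicate number as a block and leaving out each sample. NONCODE genes were not tested. The counts cover all 40 members, but 3 of them are not reported here by name or drawn in the plots. Tables were read with Python 3.11.15 and pandas 2.3.3, and plots were drawn with matplotlib 3.10.9.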

Additional observations from a re-analysis of the deposited data

Results flagged for a closer look

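For 18 members the response to resistance differed between the lines, with an adjusted p under 0.05 for the interaction of line and resistance and a difference beyond 1 on the log2 scale. The values that follow are the log2 fold change in Huh7 minus that in HepG2. In the Fanconi anaemia pathway the difference was -1.67 for FANCL, -1.93 for FANCM, -1.11 for FANCD2 and -1.84 for FANCI. FANCE alone of the 18 was positive, at 1.55. Among the BRCA genes it was -2.93 for BRIP1, -2.02 for BRCA1, -1.50 for PALB2 and -1.29 for BRCA2. RAD54B and BLM stood at -1.48 and -1.70. Of the resection genes, MRE11 was at -2.11, EXO1 at -1.64, NBN at -1.54 and RBBP8 at -1.27. The kinases ATM, CHEK1 and ATR were at -2.05, -1.67 and -1.38. All 18 kept their call in each of the 12 fits that left out 1 sample. With the GC trend removed, BRCA2 was at -0.19, RAD54B at -0.40 and RBBP8 at -0.43, none of them called, and the other 15 were called in the same direction. Of these 15, FANCL (-0.92), FANCM (-0.91), FANCD2 (-0.73), PALB2 (-0.98), BLM (-0.92), NBN (-0.51) and ATR (-0.51) were no longer beyond 1. With the replicate block as well, NBN was not called either, at -0.51 (adjusted p = 0.0647).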

How the results depend on the processing

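Of 118 member counts and medians recomputed under the alternatives other than leaving out a sample, 106 stayed within 1.5 times or 1 SD of the reported value. With the GC trend removed, 1 member (UBE2T) was past both thresholds in Huh7 against 8, 2 members were lower in HepG2 and the Huh7 median was -0.13, with or without the replicate block for the first and the last of these. With both, 8 members were lower in parental Huh7 than in parental HepG2. The sign turned in both of these fits for BRCA2 (0.25), NBN (0.23), XRCC2 (0.20), RAD50 (0.22), BARD1 (0.08) and MSH3 (0.08) in Huh7 and for the FANCG (-0.36) and RAD50 (0.26) differences between the lines, and FANCD2 was called higher in Huh7 (0.21) in the fit without the block. Without a filter 10 members were higher in HepG2. A pseudocount of 0.1 gave a Huh7 median of -0.58 and 6 members past both thresholds in HepG2. Limma-voom gave -0.58, 6 and a HepG2 median of 0.56.

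Leaving out each sample gave 6 to 15 members higher, 0 to 1 lower and 2 to 4 past both thresholds in HepG2, and 2 to 5 lower in parental Huh7 than in parental HepG2. The lowest of these came without the second parental Huh7 sample, and the 4 without the third parental HepG2 sample.

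Same-numbered samples did not deviate together throughout (correlations of -0.23 to 0.08 in Huh7 and -0.01 to 0.44 in HepG2), so the numbers were not taken as pairs. With the replicate block 21 members were higher in HepG2 (2111 of all genes against 1366) and 23 lower in Huh7.

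Over all genes in HepG2, 857 were higher without a filter, 2380 were higher and 1508 lower (against 991) with all 12 samples in 1 fit, and 2150 were lower with the GC trend removed. Median-ratio scaling, which moves the HepG2 median of all genes from 0.12 to 0.03, gave 992 higher and 1286 lower there, with 13 members higher and 1 lower. Past both thresholds, removing the GC trend gave 706 genes higher and 731 lower in Huh7 (against 1079 and 1759) and 1323 (against 2517) on the negative side of the difference between the lines, while limma-voom gave 1630 and 2665 in Huh7 and 646 (against 387) higher in HepG2. With no molecular identifiers, reads are not independent molecules, and the fewest behind a member's value were 70 for RAD54B in parental HepG2 and 82 for RAD50 in resistant Huh7.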
